A study of Caenorhabditis elegans with 34 samples.

Results

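Insulin-like peptides are small secreted hormones of the insulin family, and Caenorhabditis elegans carries an unusually large set of genes for them. The set described here holds every gene of the count table whose WormBase symbol is ins followed by a number, together with daf-28, which encodes a further peptide of the same family. It has 39 members among 20222 genes. The members bind or compete for DAF-2, the only insulin and IGF receptor homologue of the worm, which signals through the AGE-1 PI3 kinase and the AKT kinases to keep the DAF-16 FOXO transcription factor out of the nucleus. Reduced signalling through this pathway is known to extend lifespan and to favour the dauer larva, a resting stage. Members of the family are known as agonists or antagonists of the receptor, and for many of them no single role is established.

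The data are RNA-seq read counts from whole adults sorted on a fluorescent biomarker of future lifespan, so that the peptides could be compared between animals predicted to be long-lived and short-lived. The 34 libraries form 8 groups, a high and a low group for each of 4 biomarkers, and the labels name 17 sorts that each gave 1 high and 1 low library. All animals, in every group, carried the temperature-sensitive sterile allele spe-9(hc88), were fed E. coli OP50, were grown at 25 °C and were sorted on day 5 in a microfluidic device, which kept the top and bottom 10 percent. Libraries were made from pools of sorted animals, and each reporter was a transgene in 1 strain. The lin-4p::GFP strain (n = 6 high and 6 low) expresses GFP from a microRNA promoter active mainly in the posterior intestine, mir-243p::GFP (n = 4 and 4) throughout the intestine, and mir-240/786p::GFP (n = 4 and 4) in the spermatheca. Red autofluorescence (n = 3 and 3) was measured in animals without a reporter and comes from the intestine and uterus. Predicted long-lived animals are the bright ones for lin-4p::GFP and for mir-243p::GFP, and the dim ones for mir-240/786p::GFP and for autofluorescence. The other group of each biomarker is predicted to be short-lived.

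Library totals ranged from 15823719 to 26144058 counts. The gfp row was higher in the high than in the low library in 14 of 14 sorts of the reporter strains. On the second principal component (9.56% of the variance of log2 CPM, where CPM are counts per 1000000 counts of the library after scaling), lin-4p::GFP sorts 1 and 2 lay between 11.1 and 48.8 and sorts 3 to 6 between −57 and −11, with all other libraries between −8.91 and 26.3. The members' pooled values without sorts 1 and 2 are therefore given wherever they change a call or a direction.

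Of the 39 members, 27 had at least 5 counts in 26 of the 34 libraries and were tested. Since only 17 libraries are predicted long-lived and 17 short-lived, no member could pass this filter through either group alone, and each tested member had 5 counts in at least 11 libraries of each. The 12 members below the filter were ins-9, ins-12, ins-13, ins-14, ins-15, ins-16, ins-21, ins-25, ins-31, ins-32, ins-33 and ins-39. They are described by their counts further on.

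Levels differed widely within the family. Expressed as CPM per kilobase of exon (CPM per kb), which allows genes of different length to be compared, ins-7 was the most abundant member at 106 ± 30.1 (SD, n = 34 libraries). It was followed by ins-2 at 53.8 ± 41.7, ins-34 at 37.2 ± 17.9, ins-8 at 22.1 ± 15.3 and ins-17 at 15.1 ± 3.89 CPM per kb. The ranges of mean ± SD of each of these members and the next in this order overlapped. All other tested members had a mean under 10 CPM per kb, the lowest being ins-37 at 1.01 ± 0.369. Split by predicted lifespan, the mean of ins-7 was 107 CPM per kb in the long-lived and 105 in the short-lived libraries, whereas that of ins-2 was 22.0 and 85.7. The order of the most abundant members therefore depended on which animals were sampled, and ins-2 stood close to ins-7 only in the short-lived libraries.

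The summed level of all 39 members was 115 ± 23.6 CPM (SD, n = 17, range 86.5 to 154) in the predicted long-lived and 188 ± 44.2 CPM (n = 17, range 130 to 295) in the short-lived libraries. It was higher in the short-lived library in 17 of 17 sorts. By group it averaged 110 ± 24.2 CPM in high and 160 ± 21.6 CPM in low libraries of lin-4p::GFP. In mir-243p::GFP it averaged 127 ± 18.7 CPM in high and 177 ± 21.2 in low libraries. The summed level was 92.0 ± 7.15 CPM in mir-240/786p::GFP low against 180 ± 17.2 in high, and 139 ± 11 CPM in autofluorescence low against 270 ± 24.6 in high libraries. Its composition also differed. The share of ins-7 in the family's CPM averaged 39.2% ± 6.99 in long-lived and 23.7% ± 4.43 in short-lived animals. That of ins-2 was 10.6% ± 7.1 and 25.8% ± 5.14. The mean level of ins-7 itself was 45.1 CPM in long-lived and 44.5 CPM in short-lived libraries, so its smaller share went with the larger total. The mean level of ins-2 was 12.7 and 49.6 CPM. In bulk RNA, fewer cells of a type and less RNA per cell cannot be told apart.

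**Figure D1:**
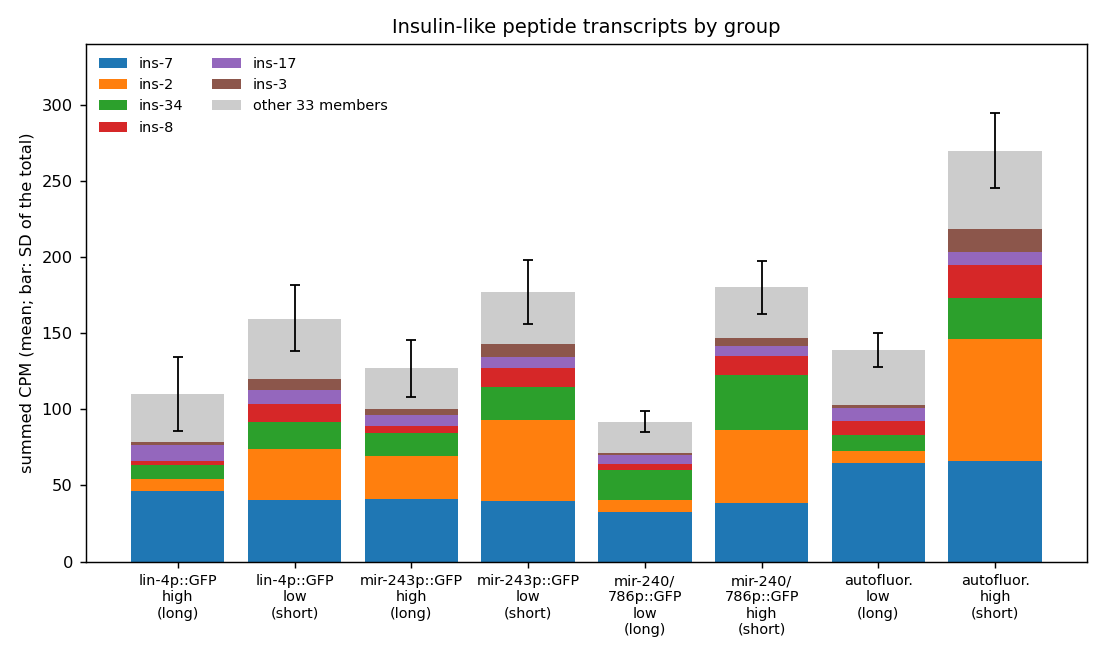
Summed level of the insulin-like peptide genes in each group, in CPM on a linear axis, as stacked group means of the 6 most abundant members and of the other 33; the black bars are the SD of the total over the libraries of a group (n = 6, 4, 4 and 3 per biomarker). The ins-7 segment is of like height within each pair of groups, and the ins-2 segment is taller in each short-lived group.

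The pooled comparison of predicted long-lived with short-lived libraries, with the biomarker as an additive term, asked which peptides differ with predicted lifespan on average over the biomarkers. It does not require a difference in each biomarker. Positive log2 fold changes mean higher in long-lived animals, and calls were made where the adjusted p was under 0.0001. Of the 27 tested members, 8 were called (29.6%), against 40.6% of all 14245 genes tested. Of these, 7 were lower in long-lived animals (ins-1, ins-2, ins-3, ins-8, ins-20, ins-23 and ins-34) and 1 was higher (ins-27), whereas over all genes 21.6% were called lower and 19% higher. At an adjusted p under 0.05, 18 members passed (66.7%, against 70.2% of all genes), 14 lower (35.6% of all genes) and 4 higher (34.7%). The share of members that differed was thus no larger than that of all genes, which were not matched to the members by level. The members that differed were mostly lower in long-lived animals. The median log2 fold change of the tested members was −0.55 (range −2.12 to 1.59), and that of all genes was −0.01.

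**Figure D2:**
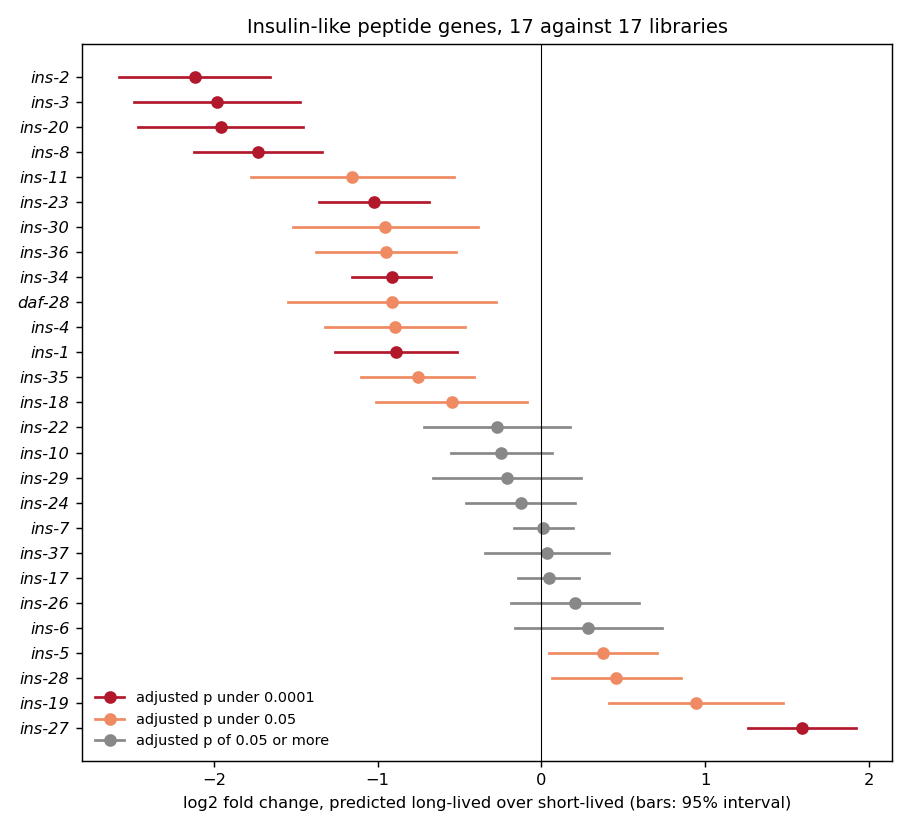
Pooled log2 fold change of the 27 tested members, predicted long-lived over short-lived, with 95% intervals (17 against 17 libraries, linear log2 axis); colours give the adjusted p. ins-2, ins-3, ins-20 and ins-8 lie furthest to the left, with log2 fold changes from −2.12 to −1.73, and ins-27 furthest to the right at 1.59.

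Every one of these libraries is whole-body RNA, and levels of some cell type markers differed with predicted lifespan as well. The summed level of 10 pan-neuronal markers ranged from 264 to 362 CPM in long-lived and from 314 to 518 CPM in short-lived animals, and that of 5 markers of the ASI and ASJ sensory neurons, which are known to make several of the peptides, from 3.67 to 8.24 and from 5.76 to 19.9 CPM. The summed level of 7 intestine markers ranged from 137 to 392 CPM in long-lived and from 60.5 to 316 CPM in short-lived animals. At an adjusted p under 0.05, 4 of these 7 were higher and none lower in long-lived animals. Of the 10 pan-neuronal markers, 6 were lower and none higher at this threshold. Over all genes, 34.7% were higher and 35.6% lower. The part of these marker levels in the members' differences was not tested.

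ins-2 had the largest pooled difference of the family. The gene has no function that is settled enough to state here, and lies on chromosome II (WBcel235, chrII:5988524-5989426). In lin-4p::GFP libraries, its lowest, median and highest levels were 3.5, 7.24 and 14.0 CPM in high animals and 20.5, 30.9 and 46.4 CPM in low animals. In sorts 1 to 4 of mir-243p::GFP, ins-2 stood at 15.2, 23.9, 32.8 and 39.6 CPM in high and at 54.9, 46.6, 50.7 and 59.7 CPM in low libraries. The predicted long-lived libraries were below the short-lived ones in each of these 10 sorts, and the groups did not overlap in either strain. The mir-240/786p::GFP libraries held 10.4, 4.61, 8.86 and 9.29 CPM of ins-2 when low and 44.2, 47.0, 54.3 and 46.2 CPM when high. Sorted by autofluorescence, low animals had 9.14, 4.26 and 8.62 CPM and high animals 69.6, 66.7 and 104.2 CPM. The groups were again apart, and the short-lived autofluorescence libraries held the highest levels of ins-2 in the series. Pooled over biomarkers, ins-2 was 4.34-fold lower in long-lived animals (log2 fold change −2.12, SE 0.23, 95% interval −2.58 to −1.66, adjusted p = 7.63e-10).

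ins-3, which is known to promote proliferation of the larval germline, lies 673 bases from ins-2, on the other strand (chrII:5990099-5990768). Its lowest, median and highest levels in lin-4p::GFP were 0.19, 1.16 and 3.33 CPM in high and 2.73, 6.18 and 10.5 CPM in low libraries, so that the extremes of these groups overlapped. The mir-243p::GFP sorts gave 2.08, 2.7, 3.83 and 6.53 CPM in high and 8.22, 7.41, 7.09 and 11.2 CPM in low libraries. The lowest value of ins-3, 0.19 CPM in a high lin-4p::GFP library, rests on 3 counts. The mir-240/786p::GFP low libraries had 1.75, 0.68, 1.13 and 1.51 CPM of ins-3 against 5.79, 3.58, 6.84 and 5.01 CPM in the high ones, and the autofluorescence libraries had 2.85, 1.33 and 1.82 CPM when low and 12.7, 9.78 and 21.4 CPM when high. Long-lived libraries were lower in all 17 sorts, with no overlap in the last 3 biomarkers. The pooled difference was 3.95-fold (log2 fold change −1.98, SE 0.25, adjusted p = 2.2e-08).

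ins-20 is the most distant member of the same group of genes (chrII:6010844-6011321). In lin-4p::GFP it had a lowest, median and highest level of 0.393, 0.626 and 1.19 CPM in high and of 1.62, 2.73 and 3.47 CPM in low libraries. Sorts 1 to 4 of mir-243p::GFP gave 0.54, 0.957, 1.52 and 1.01 CPM in high and 2.19, 2.85, 4.05 and 2.29 CPM in low libraries. Neither pair of groups overlapped. The mir-240/786p::GFP values were 1.7, 0.34, 0.497 and 0 CPM in low and 2.63, 1.59, 4.13 and 3.12 CPM in high libraries, which overlapped, and the 0 (no count among 17982748) allows up to 0.167 CPM. Autofluorescence low libraries had 1.36, 0.94 and 0.622 CPM of ins-20 and high libraries 7.26, 4.77 and 5.35 CPM. Again all 17 sorts were lower in the long-lived library, and the pooled difference was 3.88-fold (log2 fold change −1.96, SE 0.25, adjusted p = 2.39e-08).

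ins-8 is the neighbour of ins-7 on chromosome IV (chrIV:9680337-9680941). The lin-4p::GFP libraries had a lowest, median and highest level of 1.11, 2.1 and 4.53 CPM when high and of 7.12, 11.8 and 17.1 CPM when low. In mir-243p::GFP, high libraries had 3.94, 3.66, 3.27 and 7.54 CPM and low libraries 14.5, 9.84, 7.37 and 17.7 CPM of ins-8. Only the high library of sort 4 reached into the range of the low libraries, and it stood apart from the other high libraries of that strain. The mir-240/786p::GFP levels were 4.5, 3.13, 4.88 and 3.37 CPM in low and 11.3, 10.1, 13.7 and 14.6 CPM in high libraries, and autofluorescence gave 5.34, 7.02 and 16.4 CPM in low and 27.7, 18 and 19.2 CPM in high libraries. ins-8 was lower in long-lived animals in all 17 sorts. Its pooled difference was 3.32-fold (log2 fold change −1.73, SE 0.19, adjusted p = 1.49e-09).

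ins-34, next in abundance after ins-2, lies alone on chromosome IV (chrIV:14106574-14107737) and shares 82 exonic bases with nkcc-1 on the other strand. The use of strand in the counting is not given in the sources used here, so its counts could include reads of nkcc-1. The lowest, median and highest levels were 5.35, 9.55 and 13.3 CPM in high and 12.6, 16 and 23.9 CPM in low lin-4p::GFP libraries. By sort, mir-243p::GFP had 11.9, 14.4, 16.5 and 17.1 CPM of ins-34 in high and 25.1, 22.0, 21.3 and 18.9 CPM in low libraries. The lin-4p::GFP groups overlapped slightly and the mir-243p::GFP groups did not. In mir-240/786p::GFP the low libraries had 16.2, 18.9, 22.2 and 20.2 CPM and the high libraries 34.8, 39.9, 39.0 and 32.2 CPM, and in autofluorescence the low libraries had 7.65, 10.8 and 12.9 CPM and the high libraries 16.6, 29.4 and 33.3 CPM. The long-lived library was lower in 17 of 17 sorts, with a smaller pooled difference than the preceding genes, 1.88-fold (log2 fold change −0.91, SE 0.12, adjusted p = 3.56e-08).

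ins-23 lies on chromosome III beside ins-22 and ins-21 (chrIII:10028247-10028697). In lin-4p::GFP its lowest, median and highest levels were 1.97, 2.99 and 4.16 CPM in high and 4.03, 5.93 and 12.2 CPM in low libraries. The mir-243p::GFP levels were 1.04, 1.91, 2.53 and 2.8 CPM in high and 4.25, 2.72, 4.55 and 3.17 CPM in low libraries. Both pairs of groups touched at their edges. Low mir-240/786p::GFP libraries had 2.0, 1.09, 1.99 and 1.45 CPM of ins-23 and high ones 2.53, 2.09, 2.07 and 3.58 CPM, and autofluorescence low and high libraries had 1.24, 2.54 and 3.02 CPM and 6.39, 5.13 and 7.28 CPM. The latter biomarkers did not overlap. All 17 sorts were lower in the long-lived library, 2.03-fold when pooled (log2 fold change −1.02, SE 0.17, adjusted p = 2.03e-06).

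ins-1, which is known as an antagonist of DAF-2 and from learned behaviour, was the least certain of the 7 lower members (chrIV:10436701-10438412). Its lowest, median and highest levels were 0.252, 0.474 and 1.27 CPM in high and 0.656, 0.73 and 1.04 CPM in low lin-4p::GFP libraries, and these groups overlapped widely. The mir-243p::GFP sorts gave 0.926, 0.506, 1.18 and 1.01 CPM in high and 0.991, 1.59, 1.6 and 1.59 CPM in low libraries. The mir-240/786p::GFP groups were apart, with 0.601, 0.491, 0.859 and 1.04 CPM of ins-1 in low and 1.86, 2.63, 2.02 and 2.05 CPM in high libraries. Autofluorescence libraries had 0.579, 0.553 and 0.663 CPM when low and 0.972, 1.83 and 1.23 CPM when high. Of the 17 sorts, 16 had less ins-1 in their long-lived library, and the pooled log2 fold change of −0.89 (SE 0.18, adjusted p = 7.8e-05) lay just past the threshold. With the sort as a replicate block its adjusted p was 0.000143, and in 27 of 34 fits with 1 library removed the call was lost as well, with adjusted p values of at most 0.000256. Scaling by library totals (adjusted p = 0.000245) and testing without a filter on counts (adjusted p = 0.00032) also ended the call.

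ins-27, on chromosome I (chrI:14027236-14027588), was the 1 member called higher in long-lived animals. The lin-4p::GFP libraries had lowest, median and highest levels of 1.93, 3.16 and 5.6 CPM when high and 0.584, 0.755 and 1.55 CPM when low. In sorts 1 to 4 of mir-243p::GFP, high libraries had 1.62, 1.12, 1.04 and 2.35 CPM of ins-27 and low libraries 0.537, 0.67, 0.778 and 0.933 CPM. The long-lived libraries were the higher ones in each sort, although every value of ins-27 was under 6 CPM. The mir-240/786p::GFP values were 1.8, 1.62, 1.36 and 1.28 CPM in low and 0.574, 0.635, 0.64 and 0.461 CPM in high libraries, and those of autofluorescence were 3.48, 4.04 and 3.4 CPM in low and 1.07, 1.12 and 0.946 CPM in high libraries. ins-27 and ins-2 were the 2 members whose long-lived and short-lived groups did not overlap in any of the 4 biomarkers, a pattern in 1 direction that 9.43% of all tested genes had. The pooled difference of ins-27 was 3.01-fold (log2 fold change 1.59, SE 0.16, 95% interval 1.26 to 1.92, adjusted p = 2.82e-10).

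**Figure D3:**
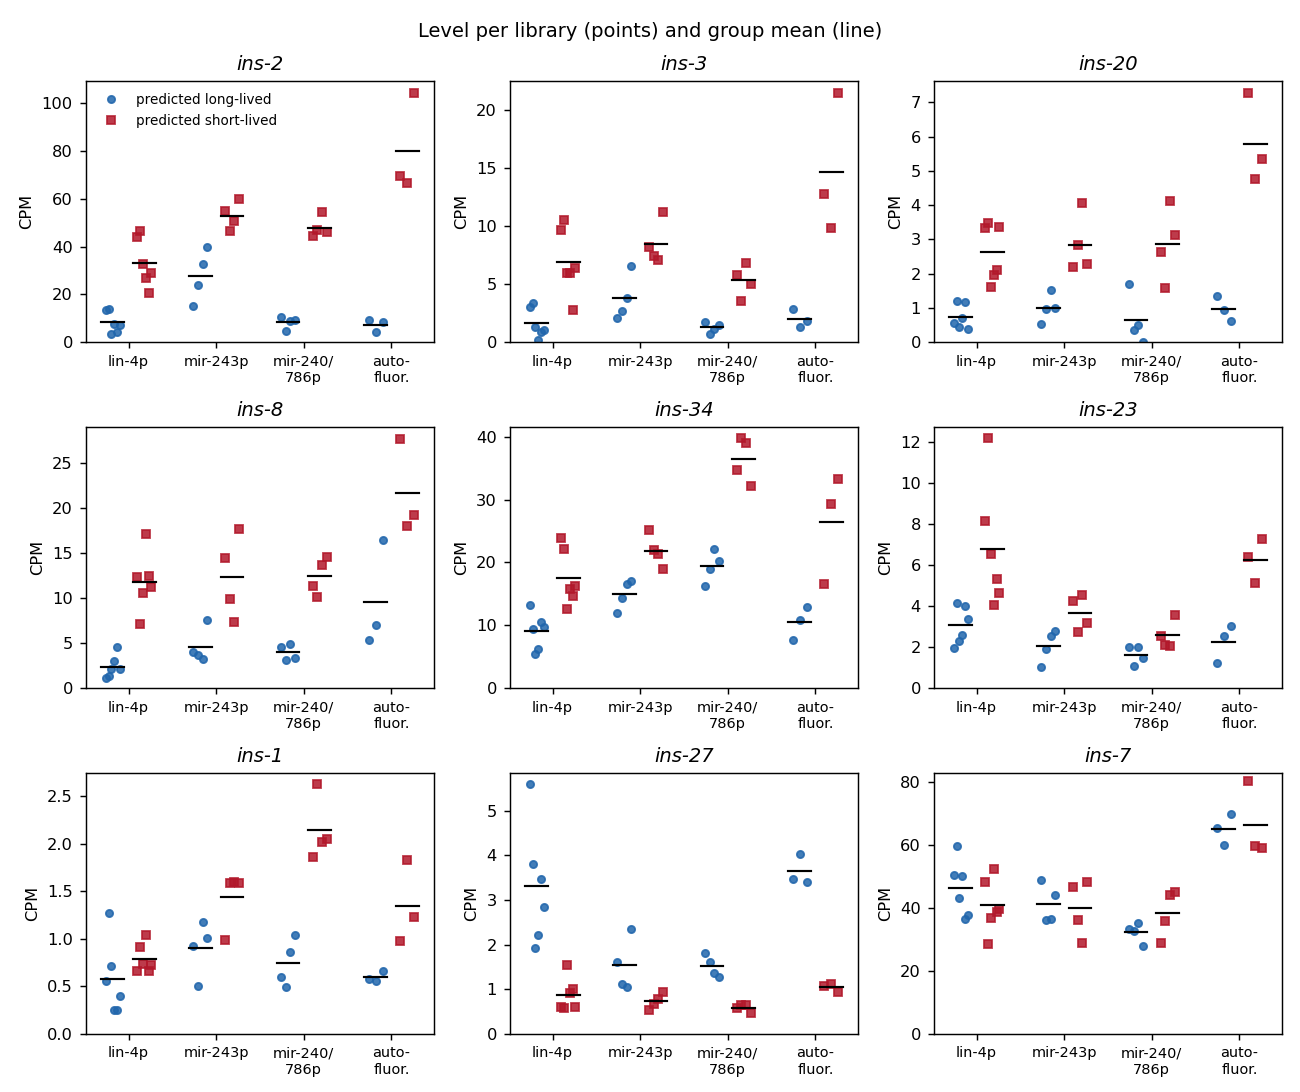
Level of the 8 members called in the pooled comparison and of ins-7 in each library, in CPM on linear axes that start at 0 and differ between panels; points are libraries (circles, predicted long-lived; squares, predicted short-lived) and lines are group means. For ins-2 and ins-27 the circles and squares of each biomarker are apart, and for ins-7 they overlap in all 4.

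ins-7, by contrast, did not pass the test. It is known as an agonist made in the intestine and nervous system that DAF-16 represses, and worms with less of it live longer. Its lowest, median and highest levels were 36.3, 46.6 and 59.5 CPM in high and 28.6, 39.2 and 52.3 CPM in low lin-4p::GFP libraries. The mir-243p::GFP sorts had 48.7, 36.1, 36.3 and 44.2 CPM in high and 46.5, 36.2, 28.8 and 48.3 CPM in low libraries. Both pairs of groups overlapped, and so did the remaining ones. In mir-240/786p::GFP, ins-7 stood at 33.4, 32.6, 35.3 and 27.9 CPM in low and 28.7, 35.9, 44.0 and 45.1 CPM in high libraries, and in autofluorescence at 65.2, 59.9 and 69.8 CPM in low and 80.3, 59.6 and 59.0 CPM in high libraries. The 5 highest levels were all in autofluorescence libraries, long-lived and short-lived alike. The pooled log2 fold change of ins-7 was 0.01 (SE 0.09, 95% interval −0.17 to 0.19, adjusted p = 0.905), and its sign turned without lin-4p::GFP sorts 1 and 2 (−0.05).

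Further agonists of the receptor differed from each other. daf-28 and ins-6 are known from the ASI and ASJ neurons, where they act in dauer entry and exit, and ins-4 is another agonist of dauer control. Group means of ins-4 ran from 2.4 to 3.37 CPM in the long-lived and from 4.17 to 6.85 CPM in the short-lived groups. All 17 sorts had less ins-4 in their long-lived library, with a pooled log2 fold change of −0.89 (SE 0.21, adjusted p = 0.000363, and 2.67e-07 with the sort as a replicate block). daf-28 averaged 1.06, 0.796, 1.31 and 2.26 CPM in the long-lived and 2.88, 1.9, 2.1 and 1.96 CPM in the short-lived groups of lin-4p::GFP, of mir-243p::GFP, of mir-240/786p::GFP and of autofluorescence. The 3 long-lived autofluorescence libraries were far apart, at 1.86, 4.86 and 0.0414 CPM. The pooled log2 fold change was −0.91 (SE 0.31, adjusted p = 0.0101), and 14 of 17 sorts had less daf-28 in their long-lived library. In the low library of lin-4p::GFP sort 4, daf-28 reached 9.41 CPM while the other 5 low libraries had 1.06 to 2.4 CPM. Without that library the pooled log2 fold change was −0.61 (adjusted p = 0.0366) and that within lin-4p::GFP was −0.57 (adjusted p = 0.308) in place of −1.42 (adjusted p = 0.0231). ins-6 did not pass, with a pooled log2 fold change of 0.29 (SE 0.22, 95% interval −0.16 to 0.74, adjusted p = 0.246).

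Of the peptides known as antagonists, ins-1 is described above. ins-18, an antagonist that is known to lower insulin signalling, was at group means of 0.78 to 1.41 CPM in long-lived and 1.43 to 1.88 CPM in short-lived animals, with a pooled log2 fold change of −0.55 (SE 0.23, adjusted p = 0.0324). This value passed 0.05 narrowly, and 5 of the 34 fits without 1 library did not (adjusted p up to 0.0563), nor did the fit without a filter on counts (0.0593). Known agonists and antagonists were thus both among the members that were lower in long-lived animals.

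ins-11, which is known from the intestine, where pathogen exposure raises it and it limits avoidance behaviour, averaged 0.673, 0.288, 0.335 and 0.916 CPM in the long-lived and 1.16, 0.986, 0.606 and 2.65 CPM in the short-lived groups of the biomarkers in the same order. Its pooled log2 fold change was −1.15 (SE 0.30, adjusted p = 0.00117), and 15 of 17 sorts had less ins-11 in their long-lived library. The low library of lin-4p::GFP sort 2 held 3.87 CPM of ins-11 and the other 5 low libraries 0.221 to 0.96 CPM. Without it, the log2 fold change within lin-4p::GFP moved from −0.80 to 0.15 and the pooled value to −0.88 (adjusted p = 0.00712).

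The other members that passed 0.05 but not 0.0001 had pooled log2 fold changes of −0.95 (ins-30, SE 0.28, adjusted p = 0.00293), −0.95 (ins-36, SE 0.21, adjusted p = 0.000165) and −0.76 (ins-35, SE 0.17, adjusted p = 0.000196) among the lower ones. With the sort as a replicate block, ins-36 was called (adjusted p = 3.34e-05). Its exons share 57 bases with Y53H1A.7 on the other strand. The higher ones were ins-19 (log2 fold change 0.94, SE 0.26, adjusted p = 0.00182), ins-28 (0.46, SE 0.19, adjusted p = 0.0356) and ins-5 (0.38, SE 0.16, adjusted p = 0.04). More ins-19 was present in the long-lived library of 15 of 17 sorts, and more ins-28 and ins-5 in that of 12. Of the 34 fits that left out 1 library, 7 lost ins-28 at 0.05 (adjusted p up to 0.0718) and 13 lost ins-5 (up to 0.0782). ins-28 also missed 0.05 without lin-4p::GFP sorts 1 and 2 (adjusted p = 0.0627) and with library totals (0.051), and ins-5 with the sort as a replicate block (0.055) and with library totals (0.064).

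Besides ins-6 and ins-7, 7 tested members did not pass 0.05. Their pooled log2 fold changes were −0.27 for ins-22 (95% interval −0.72 to 0.17), −0.24 for ins-10 (−0.55 to 0.06), −0.21 for ins-29 (−0.66 to 0.24), −0.13 for ins-24 (−0.46 to 0.21), 0.03 for ins-37 (−0.35 to 0.41), 0.04 for ins-17 (−0.14 to 0.23) and 0.21 for ins-26 (−0.18 to 0.60). ins-17, the fifth most abundant member, has the narrowest of these intervals. Exons of ins-10 and ins-37 overlap other genes, vps-39 for the former and R05D7.8 and F08G2.9 for the latter, so that their counts are uncertain.

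Many of the genes lie next to each other. With a gap of at most 20 kb between neighbours, 25 of the 39 members formed 7 clusters and 14 lay alone, and 15 members are on chromosome II and 10 on chromosome I. Tested members in clusters passed 0.05 in 12 of 18 cases and those alone in 6 of 9, both close to the 70.2% of all genes that passed. Within the cluster from ins-2 to ins-20 (chrII:5988524-6011321, 22.8 kb), 4 of 6 members were lower in long-lived animals at 0.05 (ins-2, ins-3, ins-4 and ins-20, against 35.6% of all genes), ins-5 was higher and ins-6 did not pass. ins-5 starts 549 bases after ins-4, on the same strand, and their pooled log2 fold changes were 0.38 and −0.89. The cluster from ins-28 to ins-26 (chrI:14012369-14037777, 25.4 kb) had 6 tested members. Of these, ins-27 and ins-28 were higher (34.7% of all genes) and ins-30 was lower (35.6%) at 0.05. On chromosome IV, ins-8 and ins-7 are 1070 bases apart on the same strand, at −1.73 and 0.01. Neighbours therefore did not always share a direction. Splitting of reads between similar members cannot be checked here, since the handling of multiply matching reads is not given in the sources used here.

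**Figure D4:**
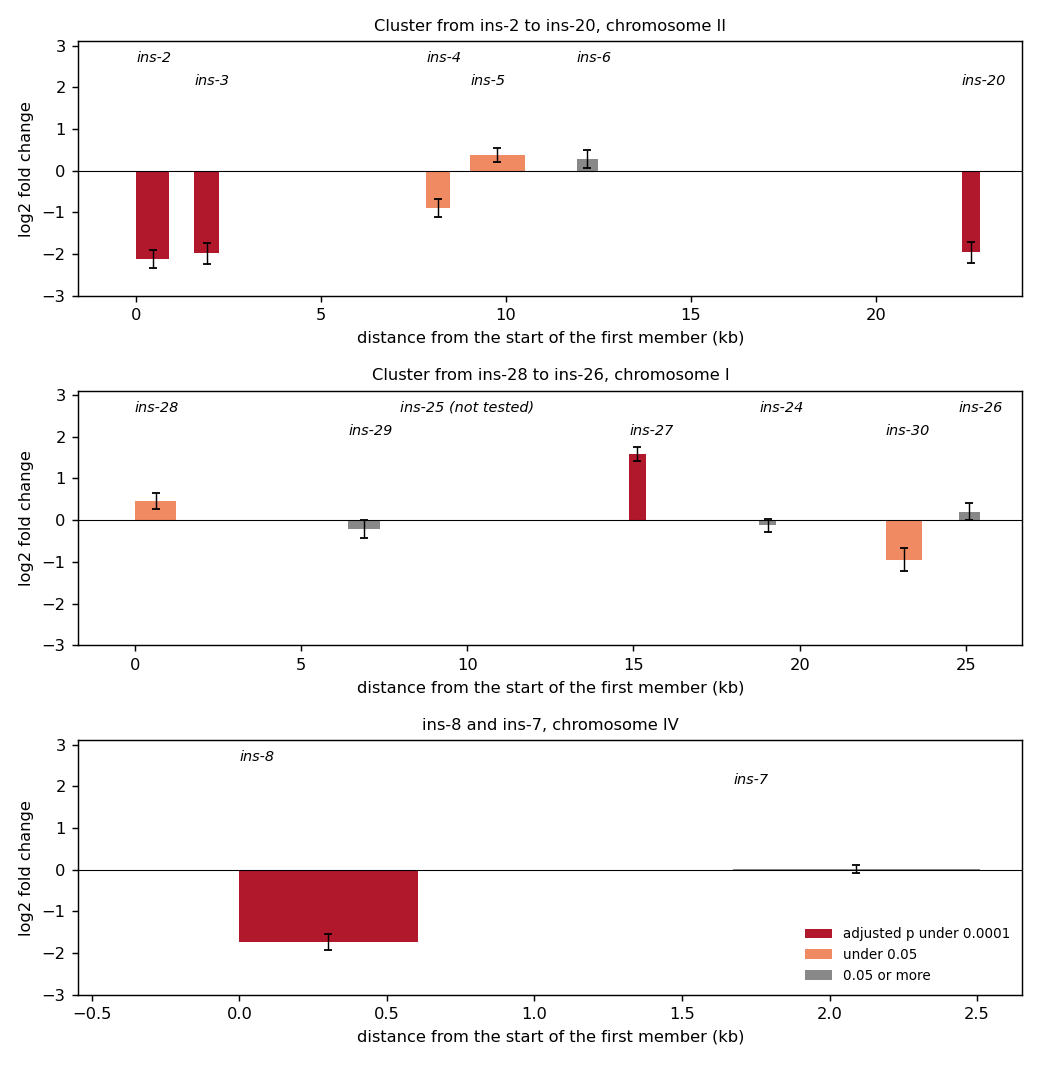
Pooled log2 fold change (long-lived over short-lived, bars: SE) of members in 3 clusters against distance along the chromosome in kb; the width of a bar is the span of the gene and its colour the adjusted p. Bars point down at ins-2, ins-3, ins-4 and ins-20 and up at ins-5 in the first cluster, up at ins-27 and ins-28 and down at ins-30 in the second, and down at ins-8 in the last, next to ins-7 at 0.01.

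Within each biomarker, fewer members were called than in the pooled comparison. For lin-4p::GFP, 3 members were called (ins-2 and ins-8 lower, ins-27 higher), against 14.2% of all genes (9.81% lower and 4.40% higher), and 11 of 27 passed 0.05 (10 lower and 1 higher), against 50.3% (25.8% and 24.5%). The mir-243p::GFP contrast had no member called (0.814% of all genes, 0.309% lower and 0.505% higher), and none called by DESeq2. It had 8 members at an unadjusted p under 0.05, a count for which the share of all genes was not taken. At an adjusted p under 0.05 it had 4 members (23.6% of all genes, 13% lower and 10.6% higher), which were ins-2 (log2 fold change −0.93), ins-8 (−1.42), ins-20 (−1.5) and ins-27 (1.08). Fits without 1 library lost ins-2 at 0.05 in 8 of 34 cases (adjusted p up to 0.167), ins-20 in 4 (up to 0.104), ins-27 in 2 (up to 0.0793) and ins-8 in none. Most of the 34 fits left out a library of another biomarker and kept all mir-243p::GFP libraries, so these counts overstate the stability of this contrast. In mir-240/786p::GFP only ins-2 was called (lower, 15.1% of all genes, 8.63% lower and 6.46% higher), and 10 members passed 0.05 (51.2%), 9 lower (26.5%) and 1 higher (24.6%). Autofluorescence gave the same count, again with ins-2 alone (7.18%, 5.15% lower and 2.03% higher), and 12 members at 0.05 (43.0%), 10 lower (21.7%) and 2 higher (21.3%). With the sort as a replicate block, the counts called were 5 for lin-4p::GFP, 4 for mir-240/786p::GFP and 3 for autofluorescence, with ins-3 and ins-34 added in each and ins-8 in mir-240/786p::GFP. ins-27 lost its lin-4p::GFP call without sorts 1 and 2 (log2 fold change 1.36, adjusted p = 0.000338).

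Levels of long-lived and short-lived libraries did not overlap for 4 of 27 members in lin-4p::GFP, 3 lower and 1 higher (17% of all genes, 10.9% lower and 6.14% higher). In mir-243p::GFP this held for 8 members, 7 lower and 1 higher (31.5% of all genes, 17.3% and 14.2%), and in mir-240/786p::GFP for 9 members, 8 lower and 1 higher (56.7%, 28.9% and 27.8%). Autofluorescence had 15 such members, 13 lower and 2 higher (64.9%, 31.9% and 33%). Over all 34 libraries no member was free of overlap (2.13% of all genes, 0.969% lower and 1.16% higher).

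Log2 fold changes had the same sign in all 4 biomarkers for 18 of the 27 members (66.7%), 14 lower and 4 higher, against 70.2% of all genes (35.8% and 34.5%). In lin-4p::GFP, in mir-243p::GFP, in mir-240/786p::GFP and in autofluorescence, they were −2.05, −1.16, −2.08 and −2.86 for ins-3 and −1.82, −1.5, −2.16 and −2.56 for ins-20. ins-8 had −2.33, −1.42, −1.64 and −1.17, and ins-27 had 1.95, 1.08, 1.38 and 1.79. By order of size ins-3 and ins-20 were furthest from 0 in autofluorescence, whereas ins-8 was furthest from 0 in lin-4p::GFP. Members of mixed sign included ins-6 (0.79, 0.66, −0.34 and −0.34) and ins-26 (0.70, 0.39, −0.08 and −0.61), neither of which passed 0.05 within a biomarker.

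**Figure D5:**
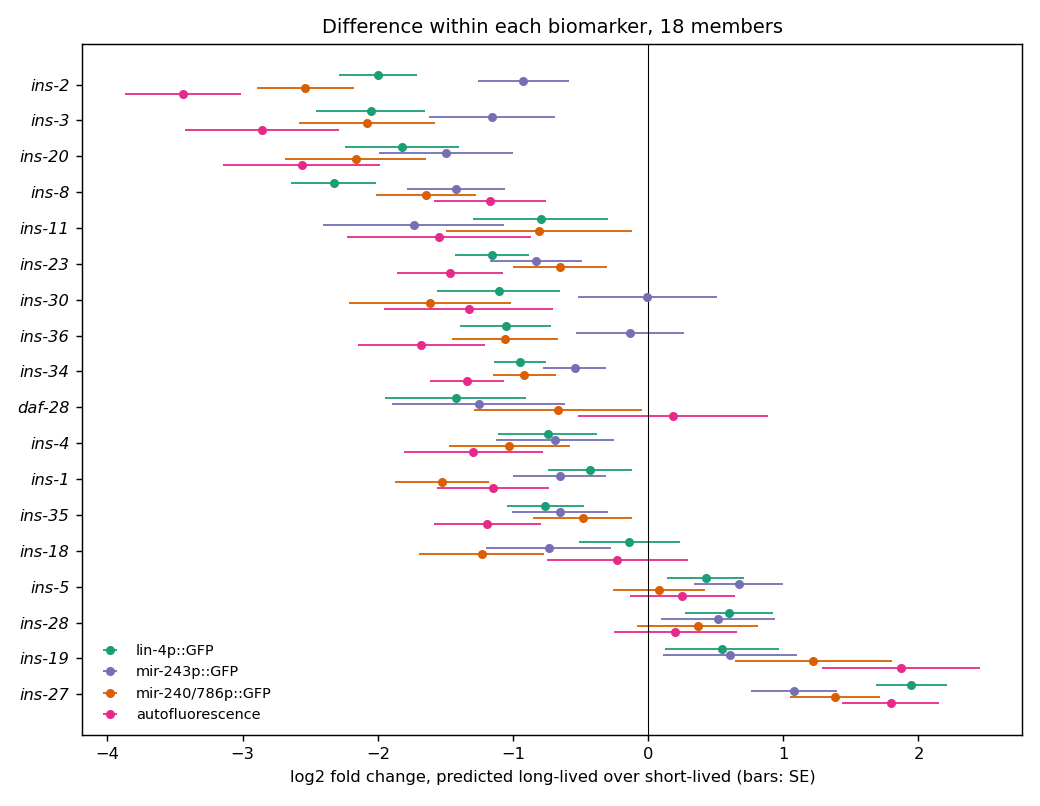
Log2 fold change within each biomarker (long-lived over short-lived, bars: SE, linear log2 axis) of the 18 members that passed an adjusted p under 0.05 in the pooled comparison. The 4 points of ins-2 spread from −3.44 to −0.93, further than those of ins-27, which lie between 1.08 and 1.95.

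Whether the difference itself varied between biomarkers was tested as an interaction. No member passed 0.0001 with edgeR or DESeq2, and none of the 14245 genes did with edgeR (0.00%). At 0.05 only ins-2 passed (adjusted p = 0.0355), which was also the only member with an unadjusted p under 0.05, and 1.74% of all genes passed. Its log2 fold changes were −2.0 (SE 0.29) in lin-4p::GFP, −0.93 (SE 0.34) in mir-243p::GFP, −2.54 (SE 0.36) in mir-240/786p::GFP and −3.44 (SE 0.43) in autofluorescence. The long-lived mir-243p::GFP libraries averaged 27.9 ± 10.6 CPM of ins-2 (n = 4), against 7.34 to 8.28 CPM in the 3 other long-lived groups. In the 34 fits without 1 library the adjusted p ran from 0.0182 to 0.0799 and was at 0.05 or above in 10. It was 0.0944 with library totals in place of TMM and 0.00327 with the sort as a replicate block.

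High and low fluorescence were also compared with each other, with the biomarker and predicted lifespan as additive terms. Within a biomarker, all bright animals have the same predicted lifespan. The term for brightness therefore compares the long-lived against short-lived difference between biomarkers with bright long-lived animals and those with dim long-lived animals. An effect of brightness cannot be told apart from such a difference between biomarkers, so the test cannot decide whether brightness goes with the peptides. No member passed 0.0001 (0.00% of all genes) or 0.05 (0.204%, 0.119% higher and 0.0842% lower), and DESeq2 called none at 0.0001. At an unadjusted p under 0.05 there were 5 members. The share of all genes at that level was not taken, so this count has no background. The lowest adjusted p was that of ins-2 (log2 fold change 0.68, high over low, SE 0.19, adjusted p = 0.0817). Its long-lived against short-lived difference, given above for the interaction, was larger in the biomarkers whose dim animals are predicted long-lived.

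The 12 untested members had means of 0.044 (ins-15) to 0.363 CPM (ins-12) and at most 25 counts in a library. The floor of 3 counts is 0.115 to 0.19 CPM at the largest and smallest totals, so that most of these values have no order. Each of the 12 had a larger summed count in the short-lived than in the long-lived libraries, from 12 against 20 counts for ins-15 to 93 against 168 for ins-12. The largest ratio was that of ins-32, with 42 counts in the long-lived and 128 in the short-lived libraries. ins-33, which acts with ins-3 on the larval germline, had 36 and 59 counts. These sums were not tested. The share of all genes below the filter with a larger sum in the short-lived libraries was not taken, so the shared direction has no background.

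The receptor and its pathway were looked at beside the ligands, in a list of 13 genes that were all tested. Of these, 4 were called higher and 1 lower in long-lived animals, and at 0.05 the numbers were 4 and 3, with 40.6% and 70.2% of all genes as background. The median log2 fold change of the list was 0.04, against −0.01 for all genes. The receptor gene daf-2 had a pooled log2 fold change of −0.13 (SE 0.14, 95% interval −0.40 to 0.15, adjusted p = 0.403) and daf-16 of 0.06 (SE 0.11, 95% interval −0.16 to 0.28, adjusted p = 0.646). The largest change was that of sgk-1, a kinase related to AKT, which was higher in long-lived animals (log2 fold change 1.35, SE 0.12, adjusted p = 2.47e-11), with values of 0.94, 1.59, 1.73 and 1.34 in the 4 biomarkers. akt-1 was higher by 0.30 (adjusted p = 3.26e-05). The 14-3-3 genes par-5 and ftt-2 went in opposite directions, 0.29 (adjusted p = 1.06e-06) and −0.49 (adjusted p = 3.16e-08).

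A second list held 10 genes for the processing and release of peptide hormones, all tested. Of these, 5 were called lower and 1 higher in long-lived animals, and 6 and 1 passed 0.05. Over all genes, 21.6% were called lower and 19% higher, and 70.2% passed 0.05, which is close to the 7 of 10 of this list. Its median log2 fold change was −0.34. hid-1, which acts in making dense core vesicles, was lowest at −0.97 (SE 0.09, adjusted p = 8.13e-11). The proprotein convertase gene kpc-1 (−0.58, adjusted p = 4.67e-08), asna-1, which promotes insulin secretion (−0.44, adjusted p = 1.91e-07), and unc-31, needed for dense core vesicle release (−0.67, adjusted p = 8.51e-07), were lower too. The 1 gene called higher, named after its value was seen, was the convertase gene aex-5 (0.92, adjusted p = 5.6e-06).

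The counts of cell type markers that follow stand against 21.6% of all genes called lower and 19% called higher. At 0.05 these shares were 35.6% and 34.7%. Of the pan-neuronal markers, 5 of 10 were called lower and none higher, the lowest p being that of unc-64 (log2 fold change −1.02, adjusted p = 8.18e-11). Of the ASI and ASJ markers, 3 of 5 were tested and 2 were called lower, gpa-4 (−1.14, adjusted p = 6.34e-08) and daf-7 (−1.16, adjusted p = 1.77e-06). Intestine markers were called higher in 3 of 7 cases and lower in none, led by ges-1 (2.01, adjusted p = 4.69e-10). Germline markers were called higher in 4 of 7 cases, with summed levels of 2530 to 6070 CPM in long-lived and 1560 to 4250 CPM in short-lived animals. Body wall muscle markers were called lower in 2 of 5 cases and higher in none, while at 0.05 there were 2 lower and 2 higher, with a median log2 fold change of 0.05 and summed levels of 140 to 740 CPM in long-lived and 77.7 to 500 CPM in short-lived animals. For the hypodermis 1 of 3 tested markers was called lower (20.7 to 212 and 22.1 to 213 CPM), and of the sperm markers the 1 tested was not called (0.805 to 7.13 and 0.562 to 3.02 CPM). No marker was at 0 in every library. The part of these cell types in the peptide levels was not tested.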

How the data were processed

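RNA-seq libraries came from whole worms of 34 sorted pools, with TRIzol extraction, oligo(dT) selection, ribosomal depletion and random hexamer priming. The authors deposited raw read counts per gene without normalization. The submitters' processing notes name STAR 2.7.3a, featureCounts and WBcel235, without their settings. All 34 columns were matched to samples by their labels, and no other column was present. Positions, exonic lengths and overlaps came from the WBcel235 annotation of Ensembl release 115.

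Genes with at least 5 counts in 26 of 34 libraries (75%) were kept, which left 14245. After TMM scaling, edgeR 4.0.16 in R 4.3.3 was used for quasi-likelihood tests, whose p-values were adjusted by the Benjamini-Hochberg method across these genes. An adjusted p under 0.0001 is a call, and counts at 0.05 stand beside it. The pooled model had the biomarker as an additive term, the model within biomarkers and the interaction used 8 group means, and the brightness model had biomarker and predicted lifespan. Log2 CPM used a prior count of 2. DESeq2 1.42.0 and other scalings, filters and left-out libraries were alternatives.

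Members and lists were chosen with earlier results of these data known. Members are named by rule: all are accounted for, with values per library for those called in the pooled test, those past 0.05 in the interaction or brightness test and the 3 most abundant. From each list at most 4 genes with the smallest p are named, and daf-2 and daf-16 always. The exception is aex-5 of the peptide processing list, which was named outside this rule after its value was seen. One further called gene of the pathway list is not reported here.

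The labels give each high and low library of a sort the same number, which pairs them. Deviations from the group means correlated within 17 pairs at −0.071 to 0.571 (median 0.186, 11 over 0.1). The sequencing batch in the study's model is missing from the labels, so batch and group cannot be told apart here. Nothing in the labels says whether sorts came from separate cultures, so p-values measure the spread between the sorted libraries. The main models had no term for the sort and treated the libraries of a pair as independent. Only the fits with the sort as a replicate block used the pairing. Within groups, chi-square per degree of freedom over 60 pairs of libraries was 10.4 to 270, so no library was a repeat of another of its group. Libraries of different groups were not compared in this way. Totals were 15823719 to 26144058 counts, and floors cover counting error only.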

Additional observations from a re-analysis of the deposited data

Results flagged for a closer look

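Of 162 combinations of a tested member and a group of 4 or 6 libraries, 7 had 1 library far from the others, where chance gives about 1 in 20. daf-28 was at 9.41 CPM in lin-4p::GFP low 4, with the other low libraries at 1.06 to 2.4. ins-11 was at 3.87 CPM in lin-4p::GFP low 2 (others 0.221 to 0.96). ins-8 was at 7.54 CPM in mir-243p::GFP high 4 (others 3.27 to 3.94), and without that library its log2 fold change within mir-243p::GFP was −1.74 in place of −1.42. ins-1 was at 0.991 CPM in mir-243p::GFP low 1 (others 1.59 to 1.6), and ins-29 at 0.225 CPM in mir-243p::GFP high 2 (others 0.733 to 0.811). In mir-240/786p::GFP low 4, ins-30 was at 0.058 CPM (others 0.271 to 0.302) and ins-35 at 0.638 CPM (others 0.264 to 0.316). Without this library the log2 fold change within mir-240/786p::GFP was −1.34 for ins-30 (adjusted p = 0.0798, against 0.0254 with it) and −0.82 for ins-35 (against −0.48). ins-2 was the member whose difference between long-lived and short-lived animals varied with the biomarker (interaction, adjusted p = 0.0355).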

How the results depend on the processing

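The call threshold and the tool set how many members were called. At 0.05 the counts were 18 pooled, 12 for autofluorescence, 11 for lin-4p::GFP, 10 for mir-240/786p::GFP, 4 for mir-243p::GFP and 1 for the interaction. DESeq2 called 10 pooled (ins-4 and ins-36 added), 6 for lin-4p::GFP and 5 each for mir-240/786p::GFP and autofluorescence. The replicate block gave 5, 4 and 3 for lin-4p::GFP, mir-240/786p::GFP and autofluorescence and 9 pooled, where it changed no call but those of ins-1, ins-4 and ins-36, and it called no member for mir-243p::GFP, the interaction or brightness. Each call within a biomarker that it changed was an added one. A filter of 10 counts in every library left 9 members, of which 4 were called in the pooled comparison. Fits on a biomarker's own libraries called 0 members for lin-4p::GFP, 3 for mir-240/786p::GFP and 0 for autofluorescence, with fewer samples. Without lin-4p::GFP sorts 1 and 2, 3 were called for mir-240/786p::GFP and 4 for autofluorescence (the cause was not tested).

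Fits without 1 library called 7 to 9 members pooled, 0 for mir-243p::GFP, 3 to 5 for lin-4p::GFP, and 1 to 2 each for autofluorescence and mir-240/786p::GFP. They turned the sign of some log2 fold changes, with ranges of −0.0461 to 0.135 for ins-37 and −0.021 to 0.0423 for ins-7 pooled. Within lin-4p::GFP these were −1.35 to 0.15 for ins-11 and −0.363 to 0.0631 for ins-18. In mir-243p::GFP they were −0.20 to 0.18 for ins-30, −0.288 to 0.0412 for ins-36 and −0.0785 to 0.153 for ins-7. For mir-240/786p::GFP they were −0.0582 to 0.713 for ins-28 and −0.12 to 0.33 for ins-5. Autofluorescence gave −1.07 to 0.77 for daf-28, −0.71 to 0.10 for ins-18, −0.0077 to 0.325 for ins-28, −0.13 to 0.41 for ins-5 and −0.11 to 0.13 for ins-7.

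Signs also turned under other settings, for values that passed no threshold. Without lin-4p::GFP sorts 1 and 2 the pooled values were −0.0309 for ins-17, −0.0004 for ins-26, −0.0832 for ins-37 and −0.0453 for ins-7, and that of ins-7 within lin-4p::GFP was −0.0197. ins-30 within mir-243p::GFP was 0.008 with RLE, 0.0204 without a filter, 0.0064 with DESeq2, 0.0381 without those sorts and 0.0116 on its own libraries. In autofluorescence daf-28 was −0.42 with the replicate block and ins-7 was 0.0027 without a filter. The cause was not tested. Depth limits the 12 members below the filter, and strand and shared reads the members that overlap or resemble other genes.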
